A study of Mus musculus with 6 samples.

Results

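The 8 genes described here, P2ry12, P2ry13, Gpr34, Csf1r, Siglech, Tmem119, Olfml3 and Sall1, are the widely used markers of homeostatic microglia, the resident macrophages of the brain. They were taken by symbol from the 32286 features of the gene tables, and all 8 were found and tested. Their levels were read in 635 microglia-like cells out of 26493 cells clustered, with the other cell classes as background. The libraries came from brain microvessels pulled out with magnetic beads carrying an antibody to the endothelial surface protein PECAM1, and were made with the 3′ droplet chemistry of 10x Genomics. There were 3 Cldn5 iECKO libraries, from C57Bl6 mice with the tamoxifen-inducible Cdh5-creERT2 transgene, homozygous floxed Cldn5 and the R26 YFP reporter on both alleles. The 3 control libraries came from C57Bl6 mice with the same floxed Cldn5 and reporter alleles and no Cre. Mice of both groups received 100 µl of tamoxifen at 20 mg/ml by gavage on 3 days at about 3 months of age. The Cdh5 promoter drives the Cre in endothelial cells. Whether each library is a separate mouse is not stated, and the spread behind each p-value is that between libraries, which may be technical.

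Resting microglia keep a gene program that sets them apart from other macrophages. It depends on signals from the tissue, among them CSF1R ligands and TGF-beta, and on transcription factors such as SALL1. After injury or inflammation, microglia commonly lower these genes while chemokine and cytokine genes rise. Claudin-5 seals the tight junctions of brain endothelium, and the study asked what follows in brain vessels when it is lost from part of the endothelial cells.

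Cldn5 had 2692, 2198 and 3126 CPM (UMI counts scaled to a common total, that of the summed cells) in endothelial-like cells of iECKO replicates 1 to 3, against 4561, 4015 and 5386 CPM in controls 1 to 3. The iECKO libraries held 2714 to 7420 barcodes and 15727366 to 49350802 UMIs (unique molecular identifiers, each counting 1 captured transcript), and the controls 4049 to 6684 barcodes and 29721428 to 31638780 UMIs. The microglia numbered 155, 35 and 77 in iECKO replicates 1 to 3 and 146, 119 and 103 in controls 1 to 3. Their summed counts were 125120 to 521455 UMIs per iECKO library and 367314 to 531591 per control. Median depth was 3079 to 5599 UMIs per cell in iECKO and 2637 to 5076 in controls. Median mitochondrial share was 2.42% to 2.87% in iECKO and 1.34% to 2.41% in controls. Every iECKO library was thus above every control in this share, narrowly so for iECKO replicate 1 (2.417%) and control 2 (2.407%). Each of the 12 markers that named the cells, none of them among the 8 genes, was found in 84.6% to 98.9% of them. No barcode of these cells was shared between libraries, and 96 of 30586 barcodes were shared over all cells. The iECKO replicate 2, with 35 microglia, is the thinnest library behind the results below.

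None of the 8 genes passed the test between iECKO and control microglia. All 8 estimates were below 0, between −0.36 and −0.06 on the log2 scale, and every 95% interval reached across 0. Of the 6322 genes tested, 3198 had estimates below 0. The 8 were read in the same summed cells, so their signs are not separate observations. The median of the 8 was −0.24, beside −0.01 over the 6322 genes tested and −0.02 over the 467 genes with a mean of at least 300 CPM. The test was edgeR's quasi-likelihood test on UMI counts summed per library, with Benjamini-Hochberg adjusted p-values of 0.995 for each of the 8. The share of genes called over the whole table was 0.0633% higher and 0.0% lower, so few calls were made anywhere. At an unadjusted p under 0.05, 0 of the 8 passed without the replicate number in the fit, beside 4.25% of all genes, and 1 of the 8 (P2ry12) with it as a block, beside 7.37%. CPM in microglia below carry edgeR's TMM scaling factors.

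**Figure D1:**
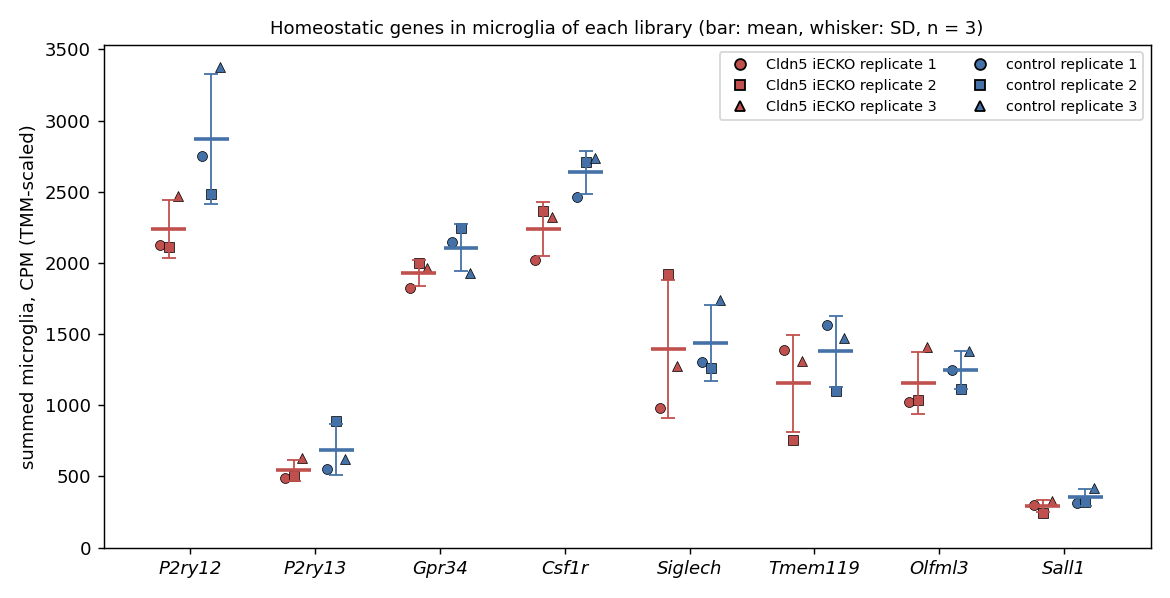
Level of each gene in the summed microglia of each library, in TMM-scaled CPM (vertical axis, from 0), with Cldn5 iECKO left of control. Markers are the 3 libraries of a group, bars the mean and whiskers the SD. For P2ry12 and Csf1r every iECKO marker lies below every control marker, and for the other 6 genes the groups overlap.

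The first group is that of the G protein-coupled receptors. P2ry12 encodes the ADP receptor by which microglia sense damage and extend their processes. P2ry12 had 2124, 2114 and 2471 CPM in iECKO replicates 1 to 3, against 2752, 2487 and 3377 CPM in controls 1 to 3. Every iECKO library was below every control, though iECKO replicate 3 and control 2 were nearly level. The log2 difference was −0.36 ± 0.21 (SE; 95% interval −0.79 to 0.07). Libraries with the same replicate number deviated together, and with the number as a block the difference was −0.36 ± 0.15 (95% interval −0.66 to −0.05), and the adjusted p of 0.612 by edgeR's quasi-likelihood test also missed the threshold of 0.05.

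P2ry13 encodes a second ADP receptor. P2ry13 had 492, 506 and 630 CPM in iECKO replicates 1 to 3, against 553, 888 and 626 CPM in controls 1 to 3. The groups overlapped, and control 2 stood above the other 5 libraries. On the log2 scale the difference was −0.33 ± 0.22 (SE; 95% interval −0.78 to 0.12), and −0.11 without control replicate 2.

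P2ry12 and P2ry13 are neighbours on the minus strand of chromosome 3 (GRCm38, GENCODE vM21), at 59216272 to 59262871 and 59207892 to 59210882, and both lie within Med12l, a gene of the plus strand. Whether the counting used strand is not given in the sources used here. Annotated transcripts of P2ry12 have 2 to 4 exons and that of P2ry13 has 2. The 250 bases before each start (RefSeq, GRCm38.p6, minus strand, 5′ to 3′) are shown because the pair shares its location and was far lower in the other classes named here. Capitals mark GGAAGT, a form of the site bound by ETS factors such as PU.1.
P2ry12, chr3:59262986-59263235: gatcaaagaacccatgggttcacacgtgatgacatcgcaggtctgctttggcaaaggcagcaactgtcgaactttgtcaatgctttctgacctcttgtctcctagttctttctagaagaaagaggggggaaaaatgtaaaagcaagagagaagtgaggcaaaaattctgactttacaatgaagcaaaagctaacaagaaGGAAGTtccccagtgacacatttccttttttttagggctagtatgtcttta
P2ry13, chr3:59210883-59211132: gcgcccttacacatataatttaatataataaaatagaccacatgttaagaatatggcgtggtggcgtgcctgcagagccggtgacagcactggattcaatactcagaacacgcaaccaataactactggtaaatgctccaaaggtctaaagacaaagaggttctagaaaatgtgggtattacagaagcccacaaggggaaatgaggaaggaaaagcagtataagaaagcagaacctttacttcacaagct
GGAAGT, searched on both strands, stood once in the window of P2ry12 and not in that of P2ry13, and 19.7% of the 32851 RefSeq windows of this length hold it. The longer PU.1 form GAGGAAGT, whose last 6 letters are GGAAGT, stood in neither and is held by 2.44% of windows. Shorter forms were not marked or counted. GGAA also stands unmarked in both windows, and GAGGAA in that of P2ry13. A match is a run of letters, not a shown binding site.

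Gpr34 encodes a receptor for lysophosphatidylserine. Gpr34 had 1824, 1997 and 1965 CPM in iECKO replicates 1 to 3, against 2150, 2245 and 1927 CPM in controls 1 to 3. Control 3 lay among the iECKO libraries. This gave a log2 difference of −0.13 ± 0.21 (SE; 95% interval −0.55 to 0.29).

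Csf1r encodes the receptor for CSF1 and IL-34, on which microglial survival depends. Csf1r had 2022, 2367 and 2326 CPM in iECKO replicates 1 to 3, against 2465, 2707 and 2735 CPM in controls 1 to 3. As with P2ry12, no iECKO library reached the lowest control. The log2 difference was −0.24 ± 0.21 (SE; 95% interval −0.66 to 0.18). Groups did not overlap, with iECKO lower, for 2 of the 8 genes, and for 5.03% of all genes tested. With iECKO higher this held for 0 of the 8 and for 4.86% of all genes.

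Siglech encodes Siglec-H, a surface receptor of the Siglec family. Siglech had 978, 1924 and 1279 CPM in iECKO replicates 1 to 3, against 1303, 1263 and 1743 CPM in controls 1 to 3. The iECKO libraries held both the lowest and the highest of the 6 values. The log2 difference was −0.06 ± 0.23 (SE; 95% interval −0.53 to 0.41), and it turned positive without iECKO replicate 1 (0.14) or control replicate 3 (0.09).

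Tmem119 encodes a transmembrane protein used to tell microglia from infiltrating macrophages. Tmem119 had 1388, 759 and 1314 CPM in iECKO replicates 1 to 3, against 1565, 1098 and 1474 CPM in controls 1 to 3. Replicate 2 was the lowest library of both groups. Its log2 difference was −0.24 ± 0.23 (SE; 95% interval −0.70 to 0.22), and −0.04 without iECKO replicate 2.

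Olfml3 encodes a secreted olfactomedin-like matrix protein. Olfml3 had 1020, 1039 and 1408 CPM in iECKO replicates 1 to 3, against 1247, 1115 and 1378 CPM in controls 1 to 3. The highest value of all was that of iECKO replicate 3, and the log2 difference was −0.11 ± 0.21 (SE; 95% interval −0.54 to 0.33). It ran from −0.28 without iECKO replicate 3 to −0.03 without iECKO replicate 1.

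Sall1 encodes a zinc-finger transcription factor that maintains microglial identity. Sall1 had 298, 244 and 327 CPM in iECKO replicates 1 to 3, against 314, 323 and 422 CPM in controls 1 to 3. The groups overlapped narrowly, since iECKO replicate 3 was above controls 1 and 2. The log2 difference was −0.26 ± 0.22 (SE; 95% interval −0.71 to 0.18), and −0.12 without control replicate 3. Sall1 rests on the fewest UMIs, 27 to 149 per iECKO library and 100 to 234 per control.

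**Figure D2:**
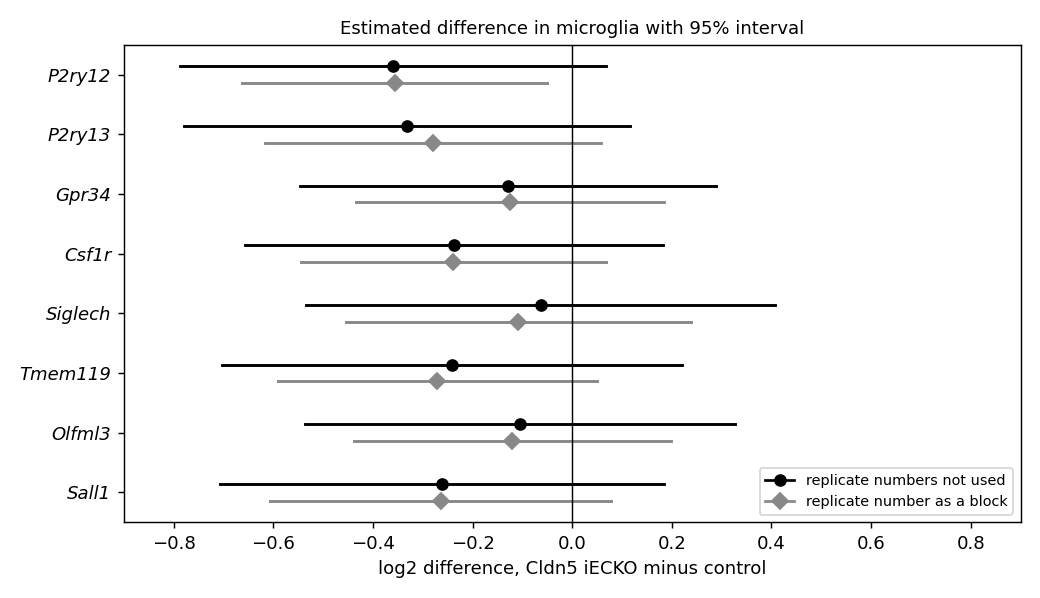
Difference of each gene in microglia, Cldn5 iECKO minus control (horizontal axis, log2), with its 95% interval from edgeR, without the replicate number (black) and with it as a block (grey). All 16 estimates lie left of 0, and only the blocked interval of P2ry12, −0.66 to −0.05, leaves 0 out.

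Markers of endothelial cells and border macrophages, and dissociation genes, overlapped between the groups in these microglia. The summed level of 8 endothelial markers was 299, 304 and 179 CPM in iECKO replicates 1 to 3, against 208, 340 and 171 CPM in controls 1 to 3. Border macrophage markers, 5 of 8 of them at 0, summed to 1.92, 160 and 14.3 CPM in iECKO replicates 1 to 3, against 5.67, 5.44 and 9.41 CPM in controls 1 to 3. The 24 immediate-early and dissociation genes, which rise when tissue is digested, summed to 25659, 31530 and 28440.5 CPM in iECKO replicates 1 to 3, against 25614.5, 37246 and 25486 CPM in controls 1 to 3. Their part in the differences above was not tested.

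The share of microglia with at least 1 UMI of a gene was compared after each cell was thinned at random to 2000 UMIs, which left out 44 iECKO cells and 60 control cells. P2ry12 was detected in 97.7% ± 2.01 of iECKO microglia and 97.9% ± 3.11 of control microglia (SD, n = 3 each). Csf1r was detected in 97.7% ± 1.44 of iECKO and 99.3% ± 0.71 of control microglia. Sall1 was detected in 41.6% ± 4.97 of iECKO and 45.2% ± 7.70 of control microglia. At this depth P2ry12 and Csf1r were thus found in nearly all microglia of both groups.

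Gpr34 shares did not overlap between the groups at this depth. Gpr34 was detected in 91.5%, 88.0% and 91.2% of cells in iECKO replicates 1 to 3, against 96.4%, 95.7% and 97.0% in controls 1 to 3. The difference was −6.13 percentage points, with every iECKO library below every control (two-sided exact permutation test, p = 0.1, the smallest that 3 against 3 allows, and 0.4 adjusted over the 8 genes). At 4000 UMIs per cell the difference was −1.80 points and unthinned −3.00, and the groups overlapped in both. In iECKO replicates 1 to 3 the shares at 4000 UMIs were 95.2%, 92.3% and 100%, against 100%, 94.1% and 98.8% in controls 1 to 3. At 2000 UMIs, the exact Clopper-Pearson 95% interval for iECKO replicate 2 alone ran from 68.8% to 97.5% on 25 cells, and covers counting error only.

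Csf1r shares did not overlap either (98.5%, 96.0% and 98.5% in iECKO replicates 1 to 3, against 99.3%, 98.6% and 100% in controls 1 to 3), but without thinning the Csf1r difference was 0.0831 percentage points. Over all genes tested, 3.8% had thinned shares that were lower in every iECKO library than in any control, beside 2 of the 8. The reverse held for 4.68% of all genes and 0 of the 8. Among the other 6 genes the groups overlapped, with differences of −6.99 points for Olfml3, −5.12 for Tmem119, −3.65 for Sall1, −0.414 for P2ry13, −0.114 for P2ry12 and 0.123 for Siglech. The P2ry13 difference was −16.0 points at 4000 UMIs, and that of P2ry12 was −5.57 at 1000 UMIs, with overlapping groups in both.

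**Figure D3:**
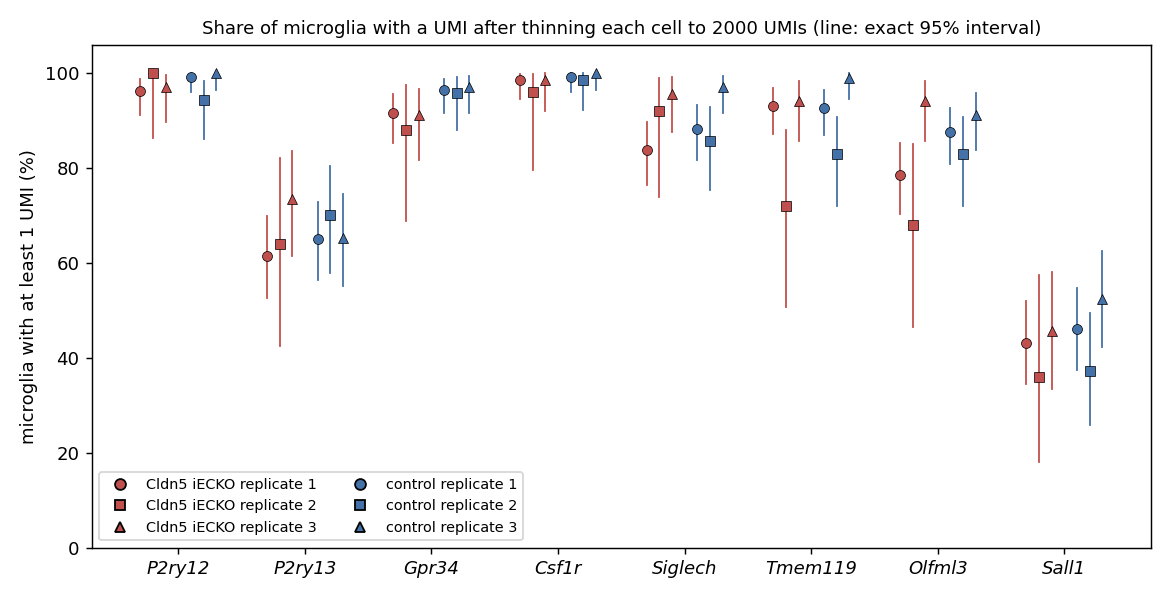
Percent of microglia with at least 1 UMI of each gene after thinning to 2000 UMIs per cell (vertical axis), with Cldn5 iECKO left of control. Markers are libraries and lines their exact 95% binomial intervals. For Gpr34 the iECKO libraries sit between 88.0% and 91.5% and the controls between 95.7% and 97.0%.

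Counted per cell at that depth, microglia held on average 6.46, 6.16 and 6.90 of the 8 genes in iECKO replicates 1 to 3, against 6.74, 6.47 and 7.02 in controls 1 to 3. The means were 6.51 ± 0.37 in iECKO and 6.75 ± 0.27 in control libraries (SD, n = 3 each), and the groups overlapped. All 8 genes were found together in 16.9%, 8% and 22.1% of cells in iECKO replicates 1 to 3, against 21.9%, 12.9% and 32.7% in controls 1 to 3. In each replicate number the iECKO value was the lower one for both measures. No cell lacked all 8 at this depth.

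The microglia fell into 4 subclusters, found with the 8 genes left out. A subcluster of 124 cells was led by the chemokine and lipase genes Cxcl10, Ccl3, Ccl4, Lpl and Ccl12. Some of its leading genes differed between the groups, so its size is not compared here. Within libraries that had at least 10 of its cells, Csf1r was lower there than in the remaining microglia by a mean log2 of −0.19 ± 0.07, and Sall1 by −0.17 ± 0.08 (SD over 5 libraries, lower in 5 of 5 for each). P2ry12 was −0.23 ± 0.20 and P2ry13 −0.39 ± 0.40, each lower in 4 of 5. Tmem119 was −0.02 ± 0.39 and Siglech −0.09 ± 0.23, lower in 4 and 3 of 5. These are descriptions with no test, since the subclusters come from the same cells.

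Without the chemokine-led cells, a setting added after seeing the data, the 8 estimates between the groups were all still below 0, from −0.31 for P2ry12 to −0.04 for Siglech, and none passed the test.

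The remaining subclusters were led by Ubash3b (186 cells), Xist (172) and Crybb1 (153), and the libraries held them in different shares. Ubash3b-led cells were 57.1% of microglia in iECKO replicate 3 and 80.6% in control 3. Xist-led cells were 37.1% in iECKO replicate 2 and 83.2% in control 2. The sex of the mice is not reported here, and its part in these shares was not tested. Because the shares differed, P2ry12 was compared within libraries, in plain CPM, as a description. In iECKO replicate 1 it was 1953 CPM in the Ubash3b-led, 2183 in the Xist-led, 2287 in the Crybb1-led and 1729 in the chemokine-led cells. In control 1 it was 3089 CPM in the Ubash3b-led, 2436 in the Xist-led, 2517 in the Crybb1-led and 2464 in the chemokine-led cells. The Ubash3b-led cells were thus the highest in control 1 and not in iECKO replicate 1, where they numbered 13. They were also the highest in iECKO replicate 2 (2649 CPM, 3 cells) and control 2 (3056 CPM, 4 cells). In iECKO replicate 3 they had 2919 CPM (44 cells), below only the Crybb1-led cells (3256 CPM, 2 cells). In control 3 they had 3649 CPM (83 cells), below only the Xist-led cells (4582 CPM, 2 cells).

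Among all genes tested, 4 rose in iECKO microglia and none fell by edgeR, and 269 had an unadjusted p under 0.05. Ccl12, a monocyte-attracting chemokine, averaged 497 ± 144 CPM in iECKO and 117 ± 34.0 CPM in control libraries (SD, n = 3 each; log2 2.09 ± 0.26 SE, adjusted p = 1.58e-05). Plaur, the urokinase receptor, had 54.3 ± 23.5 CPM in iECKO and 10.0 ± 2.86 CPM in control libraries (log2 2.42 ± 0.46, adjusted p = 0.0147 by edgeR). Plaur was also among the leading genes of an endothelial-like cluster led by Apln. That cluster held 2143, 423 and 160 cells in iECKO replicates 1 to 3, against 39, 33 and 19 in controls 1 to 3. The part of endothelial RNA in the Plaur level of microglia was not tested. Lpl, lipoprotein lipase, had 49.7 ± 11.3 CPM in iECKO and 10.4 ± 5.67 CPM in control libraries (log2 2.22 ± 0.45, adjusted p = 0.0315 by edgeR). Cd74, the invariant chain of MHC class II, had 68.3 ± 27.9 CPM in iECKO and 18.8 ± 6.72 CPM in control libraries (log2 2.00 ± 0.37, adjusted p = 0.0122 by edgeR). Each was higher in 3 of 3 iECKO libraries than in any control.

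Of these 4, Ccl12 was the only one that passed in all 6 fits with a library left out and with DESeq2. Cd74 lost its call without iECKO replicate 1 or 3 or control 1, Plaur without iECKO replicate 1 or 2 or control 1 or 3, and Lpl without any iECKO replicate or control 1.

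With the replicate number as a block, 21 genes rose (0.332% of those tested) and 2 fell (0.0316%), with 466 at an unadjusted p under 0.05. Among 14 chemokine and cytokine genes tested of a list of 18, Ccl12 alone rose without the block, and Ccl12, Ccl4, Ccl3 and Tnf rose with it. Ccl4 had 5332, 2882 and 2480 CPM in iECKO replicates 1 to 3, against 1585, 1360 and 756 CPM in controls 1 to 3 (log2 1.53 ± 0.16 SE, adjusted p = 4e-09 by edgeR with the block, and 0.227 without it). The median of the list was 0.71, beside −0.01 over all genes.

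Of 30 further homeostatic genes, all tested, none rose or fell without the block, 25 had estimates below 0 and the median was −0.16. Over all genes tested, 3198 of 6322 were below 0. An unadjusted p under 0.05 was reached by 5 of the 30, beside 4.25% of all genes, and by 9 of the 30 with the block, beside 7.37%. In 4 of the 30 every iECKO library was below every control, beside 5.03% of all genes, and in 0 above. Cst3, the protease inhibitor cystatin C, averaged 37164 ± 8002 CPM in iECKO and 47325 ± 9968 CPM in control libraries (log2 −0.35 ± 0.24 SE). Cx3cr1, the fractalkine receptor, averaged 4403 ± 321 CPM in iECKO and 5415 ± 1516 CPM in control libraries. With the block, Upk1b, a tetraspanin-family gene, fell (31.0 ± 19.1 CPM in iECKO, 89.9 ± 33.5 CPM in control libraries, log2 −1.30 ± 0.30, adjusted p = 0.0242, and 0.454 without the block, edgeR).

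None of 15 tested microglial transcription factor genes passed in either direction (of 16, median −0.08). Mef2c, a factor of myeloid and neural cells, averaged 1217 ± 124 CPM in iECKO and 1283 ± 69.4 CPM in control libraries. Of 12 tested CSF1R ligand and signalling genes (of 13) none passed, with a median of 0.01, and Tyrobp, an adaptor that pairs with TREM2, averaged 2424 ± 80.0 CPM in iECKO and 2350 ± 464 CPM in control libraries. Of 12 tested TGF-beta genes (of 13) none passed, with a median of −0.04, and the receptor gene Tgfbr1 averaged 1002 ± 39.7 CPM in iECKO and 1202 ± 115 CPM in control libraries. Of 9 tested purinergic genes (of 15) none passed, with a median of −0.01. Gnai2, a G protein subunit to which P2RY12 couples, averaged 587 ± 142 CPM in iECKO and 663 ± 91.3 CPM in control libraries, and Entpd1, which breaks down ATP and ADP, averaged 506 ± 114 CPM in iECKO and 609 ± 18.3 CPM in control libraries.

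Among 16 tested genes of the disease-associated state (of 26), Lpl alone rose and the median was 0.10. Among 9 tested interferon-induced genes (of 18) none passed, with a median of 0.53. Bst2, the antiviral tetherin, averaged 180 ± 47.5 CPM in iECKO and 138 ± 15.1 CPM in control libraries. Cxcl10 had 76.0, 497 and 16.1 CPM in iECKO replicates 1 to 3, against 5.92, 35.5 and 9.02 CPM in controls 1 to 3, and passed with the block (log2 3.26 ± 0.37, adjusted p = 2.85e-08 by edgeR). Without the block Cxcl10 passed in 0 of 6 fits with a library left out, and its log2 difference ran from 1.69 without iECKO replicate 2 to 4.04 without control replicate 2. Of 24 immediate-early and dissociation genes none passed (median −0.12), and of 3 tested MHC class II genes (of 7) Cd74 alone rose.

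Outside microglia the 8 genes were at or near 0 in most named classes. In 258 unnamed cells led by Pf4, Nrgn and Ppbp these genes were not read. In 22007 endothelial-like cells, the cells that the beads select, they had 0.20 to 1.61 CPM, or 0.033% to 0.092% of the level in microglia (plain CPM over all libraries). P2ry12 was found in 97.7% of microglia and 0.395% of endothelial-like cells at 2000 UMIs, with median depths before thinning of 3713 and 4336 UMIs. In 129 B cell-like and 62 T/NK cell-like cells no gene of the 8 had more than 2 UMIs in either class. P2ry12 and P2ry13 had 0 UMIs in 578 pericyte-like cells, and 0 of 397 thinned cells allow a share of cells with a UMI of up to 0.756% (3 counts of the total), which does not limit the share of cells that express the gene.

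**Figure D4:**
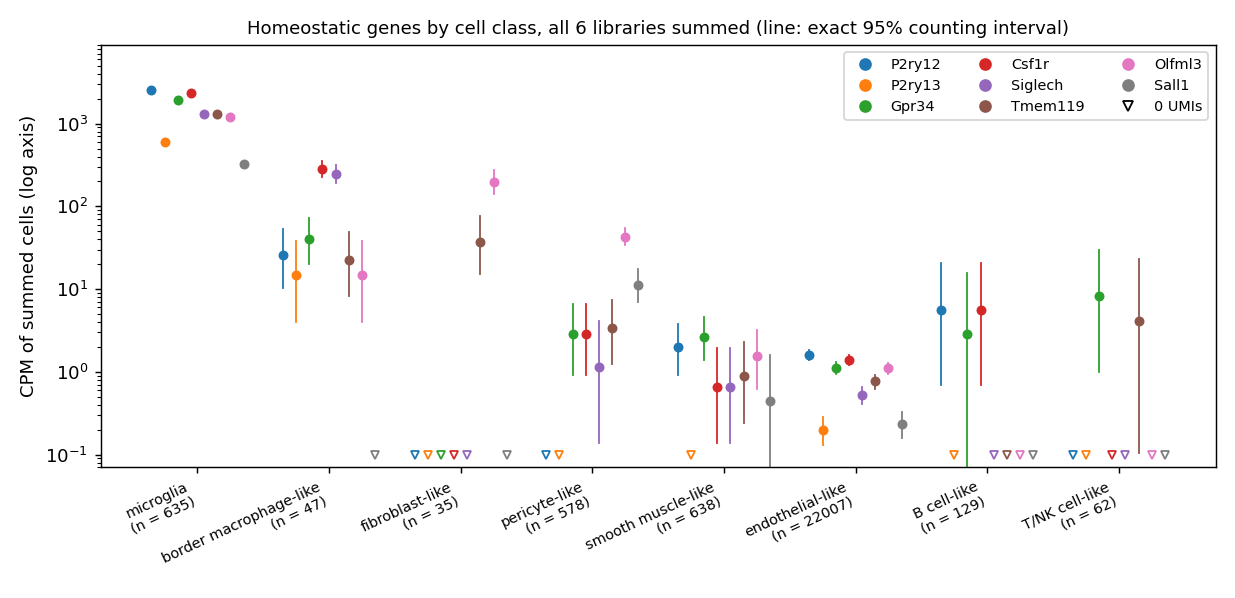
CPM of each gene over the summed cells of each of 8 classes in all 6 libraries (vertical axis, log), with exact 95% Poisson intervals as lines and open triangles for 0 UMIs. Microglia lie above 325 CPM for every gene and endothelial-like cells below 2 CPM. In border macrophage-like cells, named on 3 of 8 markers, Csf1r stands at 285 CPM. Siglech stands at 248 CPM there, in 4 of 41 thinned cells.

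Csf1r was also found in other myeloid cells, and Siglech in a few cells that clustered with them. Csf1r had 2361 CPM in microglia and 285 CPM (77 UMIs) in 47 border macrophage-like cells, which rest on 3 of 8 markers and are led by Ccl7, Mgl2 and Cd209a. In an unnamed cluster of 30 cells led by Fabp4, Ace and Ear2 it reached 692 CPM (60 UMIs), where the other 7 genes had 0 or 1 UMI. Siglech had 1314 CPM in microglia and 248 CPM (67 UMIs) in the border macrophage-like cells in 4 of 41 thinned cells. All 67 came from controls, with 0 UMIs in 26 iECKO cells, against 2 in 12 cells of control 1, 21 in 3 cells of control 2 and 44 in 6 cells of control 3. The type of the few cells with Siglech was not determined, so this is not a comparison of the groups. The other 6 genes had 0 to 40.7 CPM in these border macrophage-like cells, and Sall1 had 0 UMIs.

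Olfml3 and Sall1 were found in cells of the vessel wall. Olfml3 had 1194 CPM in microglia, 198 CPM (37 UMIs) in 35 fibroblast-like cells and 43.2 CPM (76 UMIs) in pericyte-like cells. Sall1 had 325 CPM in microglia and 11.4 CPM (20 UMIs) in pericyte-like cells. These are 3.61% and 3.49% of the microglial level in pericyte-like cells, where the other 6 genes were at 0% to 0.257%. By library, Olfml3 in pericyte-like cells was 48.1, 31.4 and 12.1 CPM in iECKO replicates 1 to 3, against 66.5, 58.8 and 43.2 CPM in controls 1 to 3, on 3 to 22 UMIs each. Tmem119 also had 37.4 CPM (7 UMIs) in the fibroblast-like cells.

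The pericyte-like cells were of 2 kinds for Olfml3 and, on fewer UMIs, for Sall1. A clustering with doublets kept, again without the 8 genes, separated a cluster led by Col3a1, and 230 of the 578 cells belong to it. There Olfml3 had 88.2 CPM (72 UMIs, exact Poisson 95% interval 69.0 to 111), against 4.23 CPM (4 UMIs, 1.15 to 10.8) in the other 348. Sall1 went the other way, with 3.68 CPM (3 UMIs, 0.758 to 10.7) in the Col3a1-led cells and 18.0 CPM (17 UMIs, 10.5 to 28.8) in the others. The other 6 genes had at most 5 UMIs in either set. Some markers moved with the split. The pericyte gene Atp13a5 had 83.3 CPM in the Col3a1-led cells and 1392 CPM in the others. The fibroblast gene Dcn had 179 and 21.2 CPM. Other pericyte genes differed less, with 9031 and 10802 CPM for Rgs5, 480 and 650 for Kcnj8 and 1334 and 2100 for Pdgfrb. The part of these markers in the Olfml3 and Sall1 levels was not tested. The intervals cover counting error only, and no test was made. Both sets had cells from 6 libraries. A further 310 pericyte-like barcodes, removed for carrying markers of another class, had 2.05 CPM of Olfml3 and 4.77 CPM of Sall1, and with all mixed barcodes kept Olfml3 was 13.8 CPM in the class.

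**Figure D5:**
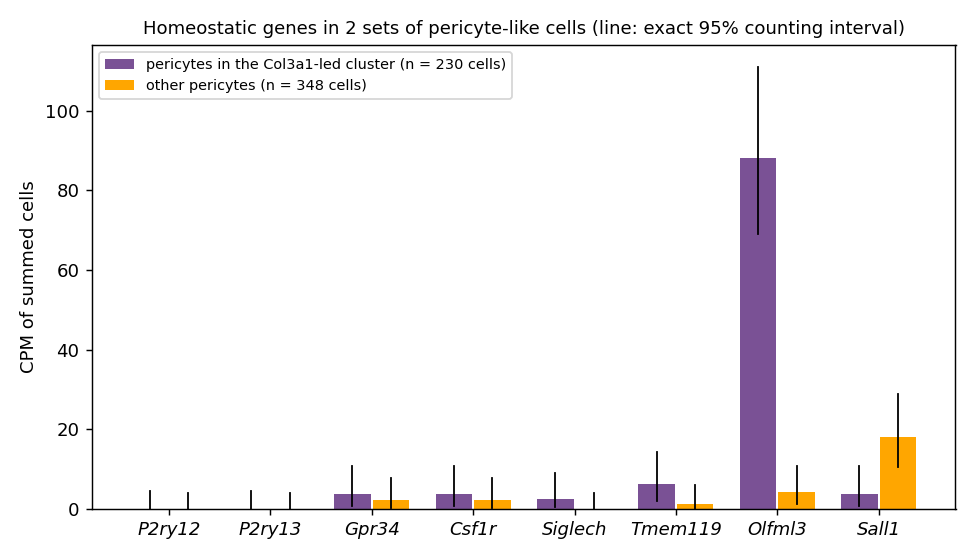
CPM of each gene in the summed pericyte-like cells of the Col3a1-led cluster (230 cells, purple) and in the other pericyte-like cells (348 cells, orange), over all 6 libraries, with exact 95% Poisson intervals as lines. Olfml3 stands at 88.2 and 4.23 CPM, and Sall1 at 3.68 and 18.0 CPM.

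Over 27 sums of a class and a library, from 6 classes, the genes most like the mean of the 8 by Pearson's r of log2(CPM + 5) included Aif1, Lair1, Gm2629 and Tifab, with r of 0.996 to 0.997. For single genes the closest were Gm2629 for P2ry12, Csmd3 for P2ry13, Lair1 for Gpr34, Aif1 for Csf1r, Nav3 for Siglech, C1qb for Tmem119, Lacc1 for Olfml3 and Serpinf1 for Sall1. All these sums share libraries and depth, so these r values are a description over classes and libraries.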

How the data were processed

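The authors deposited raw UMI counts per gene and barcode. The file headers name Cell Ranger 6.1.1, and the submitters' processing notes name mm10 and Seurat. Barcodes with at least 1000 UMIs, 500 genes and at most 15% mitochondrial counts were kept. The highest Scrublet scores (0.8% per 1000 barcodes) were removed, since its own threshold called almost none. Cells were clustered with scanpy 1.11.5 (2000 variable genes, 40 components, 20 neighbours, Leiden resolution 1.0; immune cells again with 20 components) without the 8 genes and Cldn5. Clusters were named by fixed markers, with at least 3 in 25% of cells and 75% of the 12 for microglia. Barcodes that also carried a large part of the markers of some unrelated class were taken out (at least 3, and more for classes with longer marker lists). Microglial counts were summed per library and compared, iECKO against control, with edgeR 4.0.16 (robust quasi-likelihood, TMM, filterByExpr, adjusted p under 0.05, two-sided, unpaired, R 4.3.3), tested on simulated data. Replicate numbers pair the libraries by their data: deviations of same-numbered libraries correlated across 6322 microglial genes at r of 0.191, 0.202 and 0.206, so the block is printed where it matters. Alternatives were DESeq2 1.42.0, RLE factors, no filter, the block, each library left out, stricter cells (2000 UMIs, 5% mitochondrial), doublets kept, a marker gate (4 own, under 2 others), 35 cells per library, free-RNA genes left out (10 times higher in endothelial-like cells) and other thinning depths (1000, 4000, none). Keeping the 8 genes for clustering was a further alternative, and it gave the same microglia, so its values could not differ. Removing the chemokine-led cells was added after seeing the data. The genes and lists were chosen with earlier results of these data known. Named genes are the 8, up to 4 called genes per list or else its 3 highest by CPM, the genes most alike and the largest changes. Ccl4, Ccl3, Tnf and Upk1b were named for their blocked calls, after their values were seen. Some genes that this rule names are not reported here.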

Additional observations from a re-analysis of the deposited data

How the results depend on the processing

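Of 136 values of the 8 log2 differences under alternatives, 132 were below 0, and none passed the threshold (lowest adjusted p 0.612, edgeR with the block). The 136, and the 104 values of shares below, include the clustering with the 8 genes kept, whose microglia were those of the main run. The sign changed with 35 cells per library for Sall1 (0.14) and Siglech (0.0083), and Siglech ran from −0.36 to 0.14 with a library left out. Over the same fits P2ry13 ran from −0.48 to −0.11, Tmem119 from −0.40 to −0.04, Sall1 from −0.36 to −0.12 and Olfml3 from −0.28 to −0.03. Olfml3 was −0.36 with the marker gate, and P2ry13 −0.07 with 35 cells per library. The number of genes called higher was 4, and became 1 with DESeq2, 12 with no filter, 21 with the replicate block, and 0 with the marker gate, with 35 cells per library and without the chemokine-led cells, which were set apart in part by Ccl12 and Lpl themselves (148, 89 and 137 genes at an unadjusted p under 0.05 by edgeR, and 112 by DESeq2 on all cells). It ran from 1 (without iECKO replicate 1 or control 1) to 14 (without control 2) with a library left out. Genes called lower were 0, and 1 with no filter, 2 with the block and 0 to 1 with a library left out (1 without control 3). The block changed the call of none of the 8 genes.

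Of 104 values of the shares of cells, 21 changed sign. Siglech, 0.123 points, became −7.58 at 1000 UMIs, −1.20 at 4000, −3.01 unthinned, −0.860 with at most 5% mitochondrial counts and −0.428 with doublets kept, and ran from −2.43 to 3.46 with a library left out. P2ry12, −0.114 points, became −5.57 at 1000 UMIs, 1.96 at 4000 UMIs and 3.64 with the marker gate, and ran from −1.90 to 0.960. P2ry13, −0.414 points, became −16.0 at 4000 UMIs, −8.14 unthinned, −4.27 at 1000 and 1.83 with the gate, and ran from −4.00 to 1.99, and Tmem119 ran from −9.46 to 2.07. Csf1r became 0.0831 unthinned. Gpr34, Sall1 and Olfml3 stayed below 0 in 13 of 13. Gpr34 lay between −8.25 and −1.80, Sall1 between −9.65 and −0.0091 and Olfml3 between −13.9 and −0.890. The Gpr34 groups overlapped at 4000 UMIs and unthinned. At 1000 UMIs the groups of Gpr34 and of Sall1 did not overlap, and the share over all genes was not taken at that depth. The cause of these changes was not tested. With mixed barcodes kept, the endothelial-like levels were 3.13 CPM for P2ry12, 0.465 for P2ry13, 1.59 for Tmem119, 0.452 for Sall1, 2.35 for Gpr34, 2.69 for Csf1r, 1.87 for Olfml3 and 1.24 for Siglech, and the pericyte-like levels 13.8 for Olfml3 and 0.649 for P2ry12. The 35 microglia of iECKO replicate 2 limit the precision of every comparison.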

Other observations

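Of the CSF1R ligands, Il34 was highest in pericyte-like cells and Csf1 in endothelial-like cells, among the classes named here. Il34 averaged 354 ± 72.1 CPM in iECKO and 377 ± 74.9 CPM in control libraries in pericyte-like cells, and 45.0 ± 14.6 CPM in iECKO and 26.5 ± 15.7 CPM in control libraries in smooth muscle-like cells (SD, n = 3 each). It was higher in the Col3a1-led pericyte-like cells (517 CPM) than in the others (230 CPM), as counts with no test. Csf1 averaged 76.7 ± 11.7 CPM in iECKO and 54.9 ± 18.8 CPM in control endothelial-like cells, with overlapping groups. In microglia themselves Csf1 averaged 29.1 ± 18.2 CPM in iECKO and 18.0 ± 20.3 CPM in control libraries. Tgfb1 in endothelial-like cells had 288, 169 and 137 CPM in iECKO replicates 1 to 3, against 101, 79.2 and 82.6 CPM in controls 1 to 3, and in microglia 366 ± 35.8 CPM in iECKO and 345 ± 22.5 CPM in control libraries. These ligand levels were chosen after values were seen and were not tested.

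A further 29 immune cells led by mast cell protease genes such as Mcpt4 stayed unnamed, although they carried the 12 microglia markers at a median of 1518 UMIs. P2ry12 had 1041 CPM, Gpr34 1081 CPM and Csf1r 1734 CPM in them, against 2569, 1941 and 2361 CPM in the named microglia.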
